A study of Mus musculus with 20 samples.

Results

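The insulin-like growth factor (IGF) system was examined in the mouse tibia through 10 genes: the ligands Igf1 and Igf2, the receptors Igf1r and Igf2r, and the binding proteins Igfbp2, Igfbp3, Igfbp4, Igfbp5, Igfbp6 and Igfbp7. They were chosen by gene symbol from the 54446 genes of the expression table, and all 10 had enough counts to be tested in every comparison. RNA came from pulverized tibiae of male C57BL/6J mice, 3 months old, that received subcutaneous injections over 5 days of either water (vehicle) or dexamethasone (DEX, a synthetic glucocorticoid) at 1 mg/kg. Axial loads of -13 N were put on the left tibia, with 40 cycles per session, a hold of 0.1 s and a rest of 10 s, on days 1 and 3 by the sample labels, and the right tibia was not loaded. The study's own legend gives more sessions a week and a harvest a few hours after the last of them, so the number of sessions and the time from the last load to harvest are uncertain here. This gave unloaded vehicle, loaded vehicle, unloaded DEX and loaded DEX groups of 5 libraries each.

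IGF1 is the main local growth factor of bone. It is made by osteoblasts, osteocytes, periosteal cells and marrow stromal cells, and it acts through the receptor tyrosine kinase encoded by Igf1r, which recruits insulin receptor substrates and activates PI3K and Akt. IGF2 binds the same receptor, whereas the Igf2r product, the mannose 6-phosphate receptor, takes IGF2 up for degradation. The high-affinity binding proteins hold IGFs in the circulation and in tissue, and proteases that cut them free the ligand. IGFBP7 is a related protein of low affinity. Glucocorticoids are known to restrain bone formation, and mechanical loading is known to promote it.

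Totals ran from 4641437 counts (loaded DEX replicate 4) to 13032018. Reads from 1965 olfactory and vomeronasal receptor genes, which bone is not expected to express, made up 232 to 914 CPM (counts scaled to the size of the library) in loaded vehicle, 347 to 1276 in unloaded vehicle, 812 to 3258 in unloaded DEX and 1092 to 8885 in loaded DEX libraries. The highest of these was again loaded DEX replicate 4, whose median Spearman correlation with the rest of its group was 0.887, against 0.946 to 0.974 for the other libraries. Unloaded DEX replicate 4 was left out of the main tests, so that group counts 4 libraries, because the study's text drops a library called DEX-4. In each of the 19 libraries tested, 8 osteoblast markers summed to 4610 CPM or more and 6 osteocyte markers to 674 CPM or more. The vehicle libraries are numbered 1, 2, 4 and 5, and 1 of each vehicle group carries a number that no label has and is called unnumbered. The tests measure the spread between these libraries, and in bulk tibia fewer cells of a type and less RNA per cell cannot be told apart.

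The genes lie at 10 loci of GRCm38, as annotated by GENCODE M21. Igf1 is on the plus strand at chr10:87858265-87937042, Igf1r on the plus strand at chr7:67952827-68233668, Igf2 on the minus strand at chr7:142650766-142666816 and Igf2r on the minus strand at chr17:12682406-12769664. Igfbp2 (plus strand, chr1:72824503-72852474) and Igfbp5 (minus strand, chr1:72857932-72874884) are neighbours. Igfbp3 lies on the minus strand at chr11:7206086-7213923, Igfbp4 on the plus strand at chr11:99041244-99054392, Igfbp6 on the plus strand at chr15:102144362-102149511 and Igfbp7 on the minus strand at chr5:77349240-77408041. Exons of Igf2 overlap those of Gm49394 on the same strand and of Igf2os on the opposite one, and exons of Igfbp7 overlap Polr2b on the opposite strand. The strand setting of the counting is not given in the sources used here, so values of Igf2 and Igfbp7 may hold reads of these partners.

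Promoters are shown for the ligand and the receptor whose transcripts changed in opposite directions under DEX in unloaded tibiae, and for Igfbp4, one of the most abundant binding proteins. Each window runs from 250 bases before to 50 bases after a RefSeq transcription start in GRCm38.p6, read 5′ to 3′ on the gene's own strand. Capitals mark the GC box GGGCGG, bound by SP1-type factors, and the TATA box TATAAA, each searched on both strands together with the glucocorticoid receptor site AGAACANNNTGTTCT, the single arm AGAACA of that site and the cyclic AMP response element TGACGTCA, none of which these 3 windows hold. The Igf1 window, chr10:87860861-87861160, lies inside the GENCODE gene. The Igf1r window, chr7:67952007-67952306, lies before the GENCODE start.
Igf1: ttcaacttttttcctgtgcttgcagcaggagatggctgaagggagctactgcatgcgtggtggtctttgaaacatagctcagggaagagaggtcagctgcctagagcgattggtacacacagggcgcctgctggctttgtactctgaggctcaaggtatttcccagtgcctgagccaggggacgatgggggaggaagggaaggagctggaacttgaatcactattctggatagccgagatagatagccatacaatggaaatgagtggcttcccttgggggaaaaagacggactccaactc
Igf1r: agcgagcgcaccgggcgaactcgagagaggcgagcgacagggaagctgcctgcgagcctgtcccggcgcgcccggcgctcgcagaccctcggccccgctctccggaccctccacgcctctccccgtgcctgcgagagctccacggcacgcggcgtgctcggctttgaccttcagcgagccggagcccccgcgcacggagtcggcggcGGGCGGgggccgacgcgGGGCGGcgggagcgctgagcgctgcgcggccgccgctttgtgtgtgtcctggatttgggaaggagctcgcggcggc
Igfbp4: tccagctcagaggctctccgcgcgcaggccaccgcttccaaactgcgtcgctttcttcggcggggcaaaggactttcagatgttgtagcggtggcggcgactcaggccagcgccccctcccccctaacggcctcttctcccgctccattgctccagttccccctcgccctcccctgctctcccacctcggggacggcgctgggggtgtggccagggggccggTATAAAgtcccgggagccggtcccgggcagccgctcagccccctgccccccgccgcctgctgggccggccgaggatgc

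The Igf1r window was 76.0% G or C and held 2 GC boxes, whereas the Igf1 window was 52.3% G or C, near the median of 52.7% over 32851 promoters, and held no capitals. The Igfbp4 window, chr11:99040994-99041293, was 71.3% G or C and held the TATA box. The 10 genes have 14 such windows, of which 6 hold the GC box, 2 the TATA box and 2 the single arm of the glucocorticoid receptor site, found in windows of Igf2 and Igfbp2. Over all promoters, these letters occur in 35.66%, 13.62% and 18.97%. None of the 14 windows holds the full glucocorticoid receptor site, which occurs in 0.00913% of promoters, or the cyclic AMP response element, which occurs in 1.79%.

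Per length of exon, binding protein transcripts dominated the system. Over the 19 libraries used in the tests, mean levels were 111.1 CPM per kb for Igfbp5, 107.0 for Igfbp4, 70.9 for Igfbp7 and 42.7 for Igfbp6. Below these came Igf2r at 17.6 CPM per kb, Igfbp3 at 11.4, Igf1 at 10.1, Igf1r at 9.42, Igf2 at 4.68 and Igfbp2 at 1.19. The ranges of neighbours in this order overlapped everywhere except at its end, where the highest Igfbp2 library, at 1.93 CPM per kb, lay under the lowest Igf2 library, at 2.06. With the longest transcript as the length, Igfbp4 came first at 123.3 CPM per kb and Igfbp5 second at 111.1, and the other ranks did not move. The order was not the same in every group. Igf1 stood at 19.9 CPM per kb and Igf1r at 8.06 in loaded vehicle, but at 4.67 and 12.1 in unloaded DEX, and the mean of Igfbp4 exceeded that of Igfbp5 in both of these groups.

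**Figure D1:**
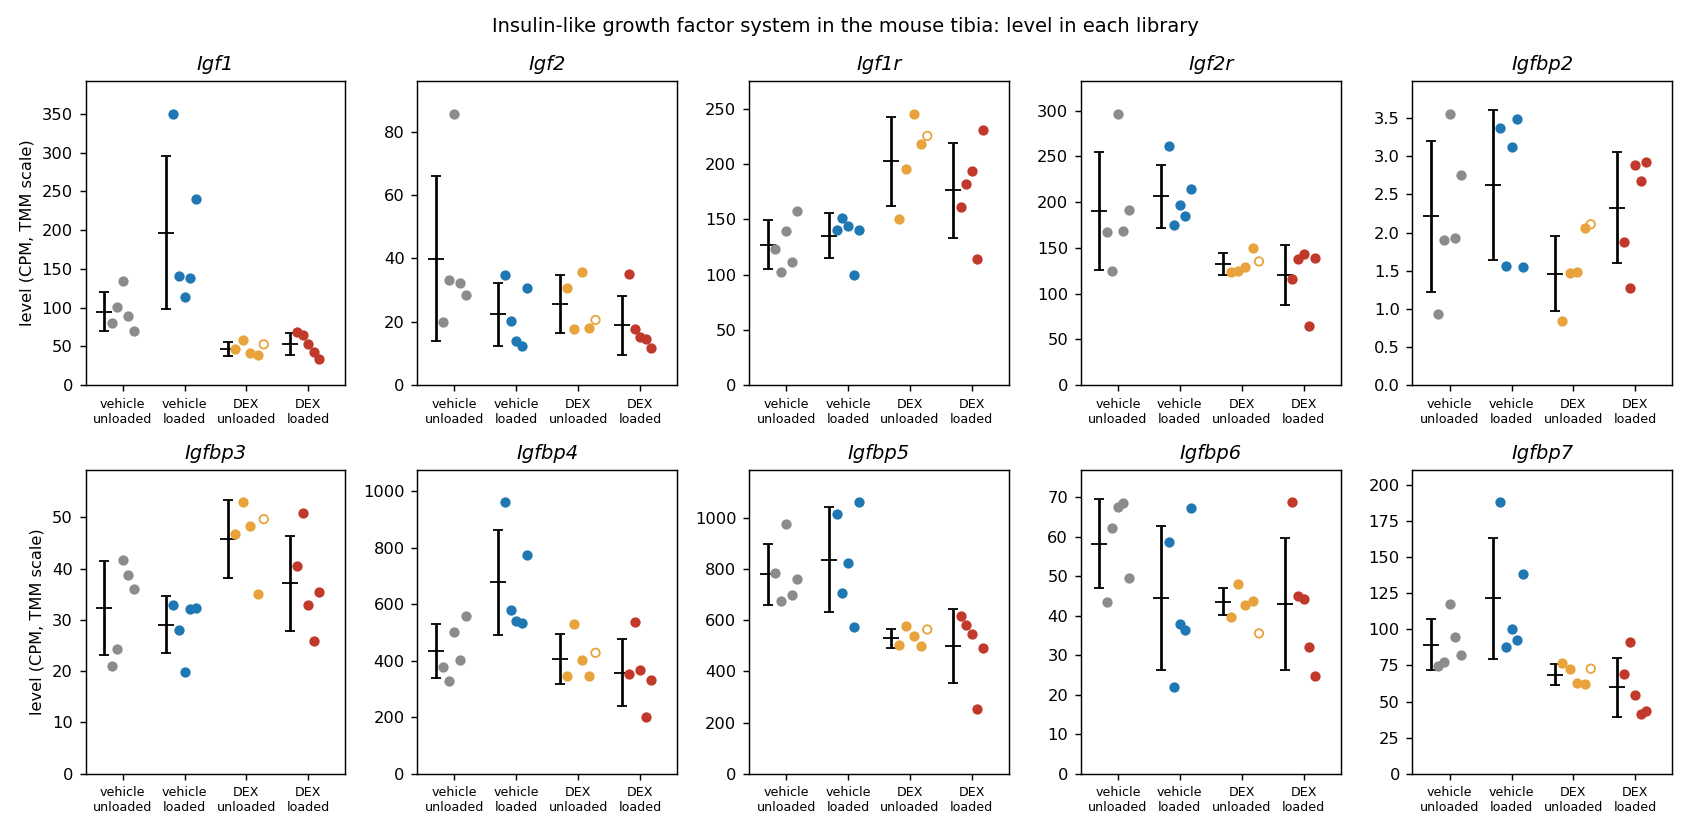
Level of each gene (CPM on the TMM scale) in each library of the 4 groups. Points are libraries, bars give the mean and SD, and the open point is unloaded DEX replicate 4, which was not used in the tests. Igf1 is at 34.1 to 68.0 CPM in the DEX groups and at 70.1 to 350.2 CPM in the vehicle groups.

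Igf1 transcripts were lower in DEX-treated mice, both in unloaded and in loaded tibiae, and no vehicle library was as low as any DEX library. Unloaded vehicle libraries held 80.1, 100.3, 134.5, 89.4 and 70.1 CPM of Igf1 in replicates 1, 2, 4, 5 and unnumbered, and unloaded DEX libraries held 46.8, 58.2, 41.4 and 38.6 CPM in replicates 1, 2, 3 and 5. The unloaded groups did not overlap. Their means were 94.9 ± 24.8 CPM (SD, n = 5) and 46.2 ± 8.69 CPM (SD, n = 4). The fitted log2 fold change was -1.02 with an SE of 0.19, which is 0.491 times the vehicle level, with an adjusted p of 0.0139 from edgeR's quasi-likelihood test over 19738 genes. Without unloaded DEX replicate 3 the log2 fold change was -0.98 and the adjusted p 0.0680, and over all alternatives it ran from 4.87e-05 to 0.0680.

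In loaded tibiae the difference in Igf1 was wider. Loaded vehicle replicates 1, 2, 4, 5 and unnumbered held 350.2, 140.5, 113.8, 138.1 and 240.3 CPM, and loaded DEX replicates 1 to 5 held 68.0, 64.9, 52.9, 43.0 and 34.1 CPM. Every loaded vehicle library exceeded every loaded DEX library, with means of 196.6 ± 98.7 CPM and 52.6 ± 14.3 CPM (SD, n = 5 each). The log2 fold change was -1.86 with an SE of 0.30, or 0.276 times the vehicle level, with an edgeR adjusted p of 0.00274 over 19780 genes and of 0.00196 to 0.00962 with each library left out in turn. With background reads as a covariate the log2 fold change was -1.15 and the adjusted p 0.319, the highest over all alternatives, which reached down to 1.12e-07. Every loaded DEX library held more background reads than every loaded vehicle library, so this covariate cannot be separated from DEX in loaded tibiae. In unloaded tibiae the same covariate gave -0.97 and 0.0220. The DEX comparisons in loaded and in unloaded tibiae share no library, but the loaded left and the unloaded right tibiae come from the same mice, so they are not independent.

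Igf1r, the receptor through which IGF1 signals, rose under DEX in unloaded tibiae. It was at 123.0, 102.5, 139.7, 111.6 and 157.9 CPM in unloaded vehicle replicates 1, 2, 4, 5 and unnumbered and at 150.4, 195.9, 245.9 and 218.7 CPM in unloaded DEX replicates 1, 2, 3 and 5. Only unloaded DEX replicate 1 lay within the vehicle range. The means were 127.0 ± 22.2 CPM (SD, n = 5) and 202.7 ± 40.4 CPM (SD, n = 4), the log2 fold change was 0.70 with an SE of 0.17, or 1.62 times the vehicle level, and the edgeR adjusted p was 0.0348. The call was lost without unloaded DEX replicate 2, 3 or 5 and without unloaded vehicle replicate 1, 2 or 5, with adjusted p up to 0.151, while over all alternatives the adjusted p went down to 0.00312. It was also lost with no filter on low counts (adjusted p = 0.0759), with the replicate block (0.108) or its libraries unblocked (0.0651) and with all 4 groups in 1 model (0.0526). In each of those left-out fits Igf1r stayed higher under DEX, by a log2 fold change of 0.59 or more.

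In loaded tibiae Igf1r was not called. Loaded vehicle replicates 1, 2, 4, 5 and unnumbered held 140.2, 151.6, 144.5, 99.3 and 140.7 CPM, and loaded DEX replicates 1 to 5 held 161.4, 181.9, 194.3, 114.2 and 230.7 CPM. In DEX only replicate 4, the library with most background reads, lay within the vehicle range. The log2 fold change was 0.43 with an SE of 0.18 and an edgeR adjusted p of 0.0999, and without loaded DEX replicate 4 it was 0.54 with an adjusted p of 0.0259. Over all alternatives the adjusted p ran from 0.0259 to 0.425, and with background reads as a covariate the log2 fold change of Igf1r was 0.93 with an adjusted p of 0.141.

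The ratio of Igf1 to Igf1r transcripts, in CPM of a gene over CPM of the other, combined both differences. It ran from 0.444 to 0.979 in unloaded vehicle, from 0.787 to 2.5 in loaded vehicle, from 0.168 to 0.311 in unloaded DEX and from 0.148 to 0.421 in loaded DEX libraries. No test was made of it, since both of its parts were tested above.

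**Figure D2:**
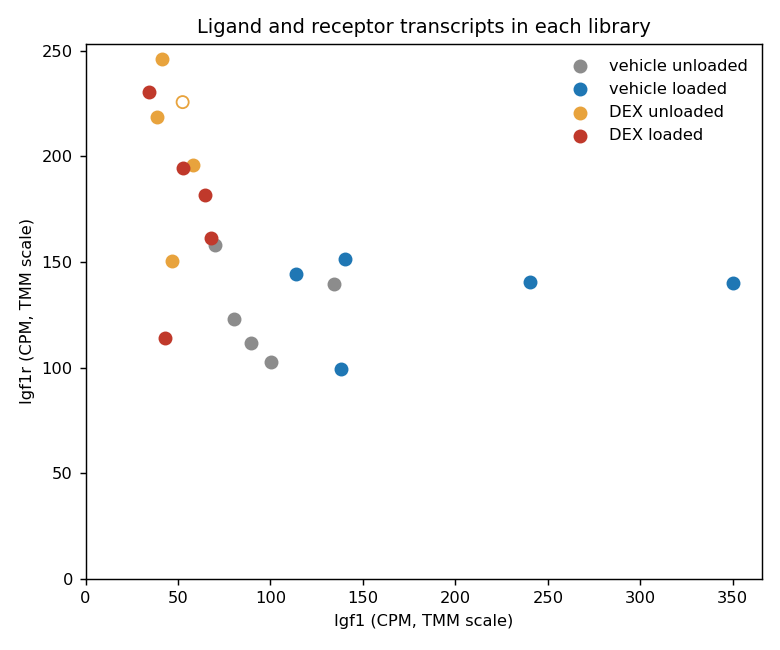
Igf1 (x axis, CPM) against Igf1r (y axis, CPM) in each library, coloured by group, with unloaded DEX replicate 4 as an open point. DEX libraries sit at the left, with Igf1 at 34.1 to 68.0 CPM, and vehicle libraries spread to the right, up to 350.2 CPM, with Igf1r at 99.3 to 157.9 CPM.

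Igf2r, the uptake receptor for IGF2, was lower under DEX in loaded tibiae. Loaded vehicle replicates 1, 2, 4, 5 and unnumbered held 261.4, 174.5, 196.5, 184.7 and 214.7 CPM, and loaded DEX replicates 1 to 5 held 115.8, 138.1, 143.1, 64.9 and 138.4 CPM. The groups did not overlap. DEX gave a log2 fold change of -0.74 with an SE of 0.20, or 0.598 times the vehicle level, with an edgeR adjusted p of 0.0229, which became 0.0547 without loaded vehicle replicate 1 and ran from 0.00253 to 0.866 over all alternatives. The last of these was the fit with background reads as a covariate, where the log2 fold change was only -0.15. The Igf2r call was also lost with the replicate block (edgeR adjusted p of 0.0552) and with its libraries unblocked (0.0697). In unloaded tibiae the means were 189.8 ± 64.5 CPM in vehicle (SD, n = 5) and 132.1 ± 12.2 CPM in DEX (SD, n = 4), and the log2 fold change of -0.50 did not pass, with an edgeR adjusted p of 0.168, and it was -0.14 with the covariate.

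Igf2 transcripts were few and uneven, and no comparison called them. The means were 40.0 ± 26.1 CPM in unloaded vehicle, 22.4 ± 9.97 CPM in loaded vehicle and 18.9 ± 9.26 CPM in loaded DEX (SD, n = 5 each), and 25.6 ± 9.10 CPM in unloaded DEX (SD, n = 4). Unloaded vehicle replicate 4, at 85.8 CPM, stood well above the other 4 libraries of its group, which held 20.02 to 33.3 CPM. For DEX the log2 fold change was -0.64 with an SE of 0.38 in unloaded and -0.21 with an SE of 0.32 in loaded tibiae, with edgeR adjusted p of 0.317 and 0.657. Without unloaded vehicle replicate 4 the value in unloaded tibiae was -0.16.

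Of the binding proteins, Igfbp4 and Igfbp7 fell under DEX in loaded tibiae. Igfbp4, whose product mostly withholds IGF1 from its receptor until a protease cuts it, held 960.9, 578.6, 541.7, 534.4 and 775.8 CPM in loaded vehicle replicates 1, 2, 4, 5 and unnumbered and 353.1, 535.6, 365.6, 202.0 and 331.1 CPM in loaded DEX replicates 1 to 5. Loaded DEX replicate 2 alone reached the lowest vehicle library. The log2 fold change was -0.88 with an SE of 0.25, or 0.542 times the vehicle level, with an edgeR adjusted p of 0.0257. The call was lost without loaded DEX replicate 1, loaded vehicle replicate 1 or the unnumbered loaded vehicle library, with adjusted p of 0.0513, 0.0607 and 0.0563, and over all alternatives it ran from 0.00207 to 0.981. The Igfbp4 call was also lost with the replicate block (edgeR adjusted p of 0.0819) and with its libraries unblocked (0.102). With background reads as a covariate the log2 fold change of Igfbp4 was -0.03 with an SE of 0.28. In unloaded tibiae Igfbp4 held 434.2 ± 94.3 CPM in vehicle (SD, n = 5) and 405.9 ± 87.7 CPM in DEX (SD, n = 4), with a log2 fold change of -0.08, an SE of 0.19 and an edgeR adjusted p of 0.8286.

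Igfbp7, the low-affinity relative, was at 188.0, 88.1, 100.5, 92.5 and 138.3 CPM in loaded vehicle replicates 1, 2, 4, 5 and unnumbered and at 69.1, 90.9, 54.6, 41.4 and 43.7 CPM in loaded DEX replicates 1 to 5. Again loaded DEX replicate 2 was the library that overlapped the vehicle group. Its log2 fold change was -0.98 with an SE of 0.25, or 0.508 times the vehicle level, with an edgeR adjusted p of 0.0184. With background reads as a covariate the log2 fold change of Igfbp7 was -0.32 and the adjusted p 0.766, the highest of the alternatives, which reached down to 0.00185 and stayed at or under 0.0408 with each library left out. In unloaded tibiae the log2 fold change was -0.37 with an SE of 0.14 and did not pass, with an edgeR adjusted p of 0.141.

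Igfbp5, a binding protein stored in bone matrix and the highest of the 10 in mean CPM in every group, lay close to the threshold in both DEX comparisons. It held 783.2, 676.5, 973.8, 699.2 and 759.1 CPM in unloaded vehicle replicates 1, 2, 4, 5 and unnumbered and 504.1, 577.3, 537.2 and 497.7 CPM in unloaded DEX replicates 1, 2, 3 and 5, so these groups did not overlap. This gave a log2 fold change of -0.54 with an SE of 0.15 and an edgeR adjusted p of 0.0554, while DESeq2 gave 0.000685 and the fit without unloaded vehicle replicate 2 gave 0.0440, in a range over all alternatives of 0.000685 to 0.391. In loaded tibiae the means were 835.9 ± 204.0 CPM in vehicle and 498.2 ± 145.0 CPM in DEX (SD, n = 5 each). There the log2 fold change was -0.70 with an SE of 0.24 and an edgeR adjusted p of 0.0550, which became 0.0470 without loaded DEX replicate 2, 0.0331 without loaded vehicle replicate 5 and 0.0141 in DESeq2, in a range of 0.0110 to 0.993. The upper end is the fit with background reads as a covariate, in which the log2 fold change of Igfbp5 was -0.01.

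Igfbp3, Igfbp6 and Igfbp2 were not called in either DEX comparison. Igfbp3, whose product carries most IGF in the circulation, had higher means under DEX, with 45.7 ± 7.62 CPM (SD, n = 4) against 32.4 ± 9.15 CPM (SD, n = 5) in unloaded tibiae and 37.1 ± 9.33 CPM against 29.1 ± 5.54 CPM (SD, n = 5 each) in loaded tibiae. Its log2 fold changes were 0.51 and 0.39, with edgeR adjusted p of 0.140 and 0.132, and in loaded tibiae the background covariate gave 0.89 with an adjusted p of 0.173. Igfbp6, which prefers IGF2 as a ligand, had log2 fold changes of -0.40 in unloaded and -0.01 in loaded tibiae, with adjusted p of 0.141 and 0.981. Igfbp2 rested on 7 to 37 counts per library, and its log2 fold changes of -0.57 and -0.13 had SEs of 0.42 and 0.39.

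In all, 4 of the 10 genes were called lower by edgeR under DEX in loaded tibiae (Igf1, Igf2r, Igfbp4 and Igfbp7) and none higher, where 8.35% of the 19780 genes tested were called lower and 12.9% higher. In unloaded tibiae 1 of 10 was called lower (Igf1) and 1 higher (Igf1r), where 3.99% of the 19738 genes tested were called lower and 2.86% higher. DESeq2 called 5 of 10 in loaded and 3 of 10 in unloaded tibiae, against 28.6% and 12.2% of all genes. Groups did not overlap for 2 of 10 genes in loaded and 2 of 10 in unloaded tibiae, where that held for 16.5% and 10.8% of all genes. The median log2 fold change of the 10 genes was -0.46 in loaded and -0.45 in unloaded tibiae, beside 0.00 and 0.03 over all genes tested. With background reads as a covariate, none of the 10 genes was called in loaded tibiae, where 28 genes in all were called. Background reads did not overlap there, at 232 to 914 CPM in vehicle and 1092 to 8885 CPM in DEX libraries. That fit therefore cannot separate DEX from background reads.

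**Figure D3:**
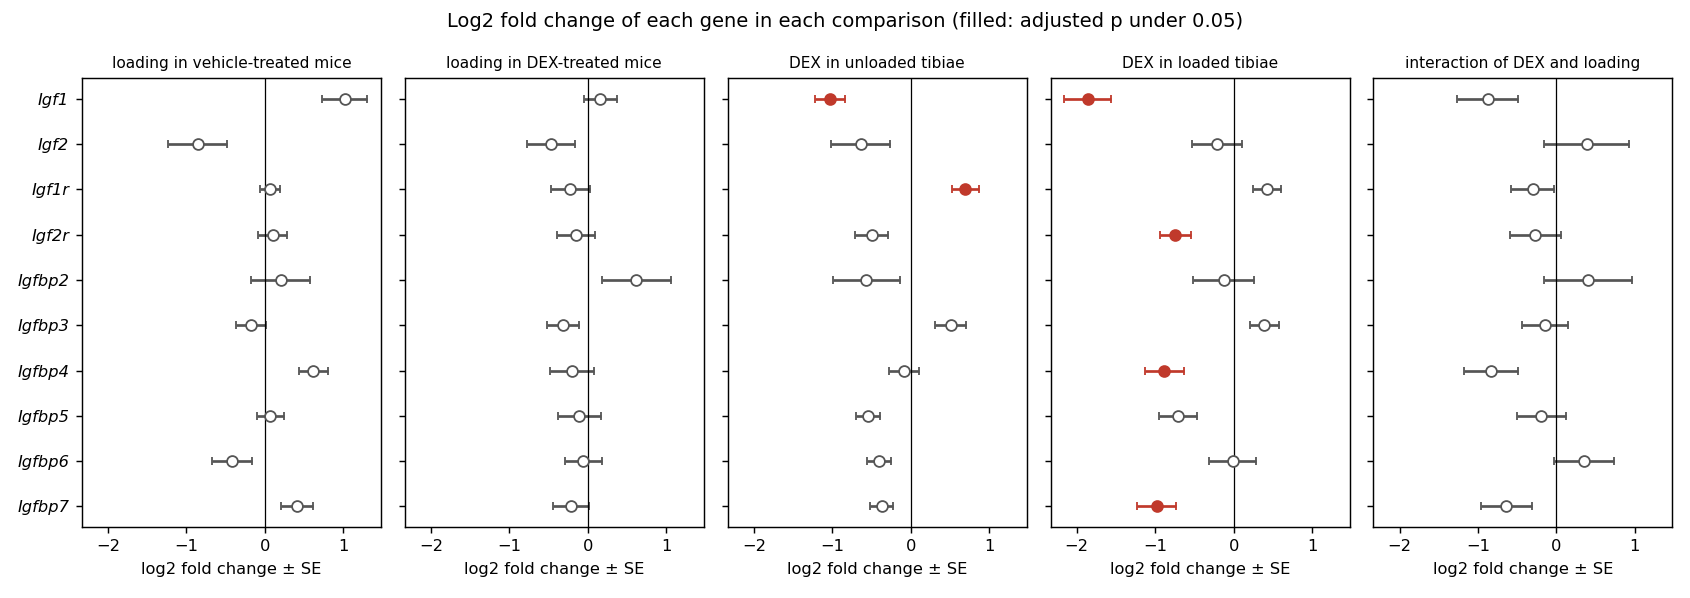
Log2 fold change with its SE for each of the 10 genes in the 5 comparisons, with filled points where the edgeR adjusted p was under 0.05. Igf1 is filled at -1.02 in unloaded and -1.86 in loaded tibiae, Igf1r is filled at 0.70 in unloaded tibiae, and no point is filled for loading or for the interaction.

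Loading in vehicle-treated mice addressed whether the local IGF system responds to mechanical stress. None of the 10 genes was called by edgeR or by DESeq2, and 3 had an unadjusted p under 0.05. Over all 17982 genes edgeR called 0%, with 1773 at an unadjusted p under 0.05, and DESeq2 called 141, or 0.784%. No gene of the 10 had groups that did not overlap, where 1.33% of all genes did. The median log2 fold change was 0.08 over the 10 genes and 0.00 over all genes.

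Igf1 and Igfbp4 had the lowest p-values of the 10 in that comparison. From the values above, 4 of the 5 loaded vehicle libraries exceeded the highest unloaded vehicle library of 134.5 CPM in Igf1, and replicate 4, at 113.8 CPM, did not. The log2 fold change of Igf1 was 1.02 with an SE of 0.29, or 2.02 times the unloaded level, with an edgeR adjusted p of 0.336, which ran from 0.0596 in DESeq2 to 0.738 over the alternatives. For Igfbp4, loaded vehicle libraries held 534.4 to 960.9 CPM and unloaded ones 329.0 to 560.0 CPM, with a log2 fold change of 0.62, an SE of 0.19 and an edgeR adjusted p of 0.361. Neither difference passed the test over all genes.

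The remaining genes moved less or more unevenly with loading in vehicle-treated mice. Igf2 had a log2 fold change of -0.86 with an SE of 0.38, Igfbp6 of -0.42 with 0.25, Igfbp7 of 0.41 with 0.20 and Igfbp3 of -0.18 with 0.19. Igf1r, Igf2r, Igfbp2 and Igfbp5 lay between 0.06 and 0.20. Their edgeR adjusted p ran from 0.496 for Igf2 to 0.887 for Igfbp5. Single libraries carried much of these values, which were -0.38 for Igf2 without unloaded vehicle replicate 4, -0.24 for Igfbp6 without loaded vehicle replicate 2 and 0.21 for Igfbp7 without loaded vehicle replicate 1.

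In DEX-treated mice loading moved no gene of the system past the threshold, with 0 of 10 called by edgeR or DESeq2, 0 of 10 at an unadjusted p under 0.05, and 0% of 22541 genes called by either tool. At an unadjusted p under 0.05 there were 958 of those genes. Igf1 held 46.2 ± 8.69 CPM in unloaded and 52.6 ± 14.3 CPM in loaded DEX tibiae, a log2 fold change of 0.16 with an SE of 0.21 and an edgeR adjusted p of 0.762. Igfbp2 had the largest value, 0.62 with an SE of 0.44, on few counts. No group pair was free of overlap among the 10 genes, where 1.25% of all genes were.

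The interaction, which tests whether loading acted differently under DEX, called none of the 10 genes in edgeR or DESeq2, and 2 had an unadjusted p under 0.05. Over 23653 genes edgeR called 0%, with 2859 at an unadjusted p under 0.05, and DESeq2 called 50, or 0.211%. The values furthest from 0 were those of Igf1, at -0.88 with an SE of 0.39 and an adjusted p of 0.404, and of Igfbp4, at -0.83 with an SE of 0.34 and an adjusted p of 0.395, on the log2 scale in edgeR. Igfbp7 followed at -0.64 with an SE of 0.33. With the background covariate these values were -0.52 for Igf1, -0.37 for Igfbp4 and -0.34 for Igfbp7. Without loaded vehicle replicate 1 they were -0.55 for Igf1 and -0.42 for Igfbp7, and with the replicate block Igf1 was at -0.50. A difference between the loading responses was therefore not shown for any of the 10 genes at this sample size.

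The make-up of the binding protein pool was compared per length of exon. The summed level of the 6 binding proteins was 366 ± 53.3 CPM per kb in unloaded vehicle, 444 ± 121 in loaded vehicle and 265 ± 74.5 in loaded DEX (SD, n = 5 each), and 291 ± 32.3 in unloaded DEX (SD, n = 4). Igfbp5 made up 35.5% ± 3.09, 31.6% ± 3.40, 31.2% ± 4.13 and 30.3% ± 1.32 of it in the same order, and Igfbp4 made up 26.8% ± 3.87, 34.7% ± 2.32, 30.4% ± 3.64 and 31.3% ± 3.22. Igfbp3 was a minor part everywhere, at 2.07% to 3.43% in unloaded vehicle, 1.64% to 3.04% in loaded vehicle, 4.24% to 5.40% in unloaded DEX and 3.89% to 5.14% in loaded DEX libraries, so the DEX and vehicle ranges of its share did not overlap. Igfbp6 made up 5.65% to 11.2% in loaded vehicle and 11.8% to 17.7% in unloaded vehicle libraries, and 12.8% to 14.9% in unloaded DEX and 9.73% to 19.6% in loaded DEX libraries, the last overlapping both vehicle ranges. These shares depend on each other and were not tested.

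**Figure D4:**
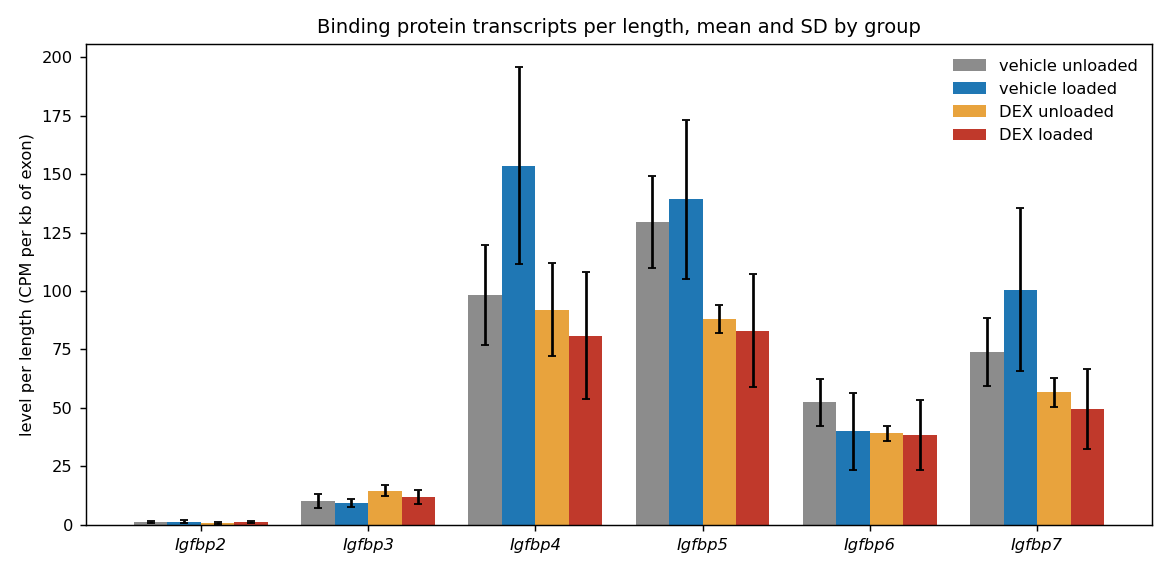
Level per length (CPM per kb of exon, linear axis from 0) of the 6 binding protein transcripts in the 4 groups, as bars for the mean and error bars for the SD. Igfbp5 and Igfbp4 are tallest, and in loaded DEX tibiae they stand at 83.0 and 81.0 CPM per kb against 139.2 and 153.6 in loaded vehicle tibiae.

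Markers of several cell types moved along with these genes. The summed level of 8 osteoblast markers was 41200 to 145000 CPM in unloaded vehicle, 63500 to 95000 in loaded vehicle, 6170 to 35200 in unloaded DEX and 4610 to 23100 in loaded DEX libraries. For 7 periosteum and tendon fibroblast markers it was 1200 to 3390, 1810 to 4240, 565 to 816 and 431 to 1130 CPM, and for 8 chondrocyte markers 260 to 862, 580 to 2190, 82.4 to 371 and 72.0 to 212 CPM in the same order. Macrophage markers, 7 in number, ran from 365 to 526, 547 to 650, 400 to 574 and 265 to 560 CPM, and 8 neutrophil markers from 4900 to 7120, 4200 to 6210, 8700 to 15900 and 6960 to 16700 CPM. Osteocyte markers, 6 in number, summed to 1800 to 2560, 1500 to 2520, 1010 to 1670 and 674 to 1400 CPM, 7 B cell markers to 231 to 348, 242 to 398, 80.7 to 236 and 63.4 to 193 CPM, and 8 skeletal muscle markers to 8480 to 38800, 3930 to 19500, 2450 to 18000 and 7570 to 22200 CPM. In loaded tibiae under DEX, edgeR called lower 7 of 8 osteoblast, 4 of 6 osteocyte, 7 of 7 tested chondrocyte, 5 of 7 periosteum and tendon, 3 of 7 macrophage and 6 of 7 B cell markers, and it called higher 7 of 8 neutrophil and 1 of 8 muscle markers. Over all genes tested there, 8.35% were called lower and 12.9% higher. The osteocyte marker Fgf23 also passed there, but at means of only 0.572 CPM in loaded vehicle and 1.76 CPM in loaded DEX it entered the test through the DEX libraries and is not counted. Among the chondrocyte markers, Matn3 was at means of 6.72 CPM in loaded vehicle and 0.715 CPM in loaded DEX. It was too low to be tested for loading or for DEX in unloaded tibiae, so its call is not read as a result. In unloaded tibiae edgeR called lower 5 of 8 osteoblast, 3 of 5 tested osteocyte, 3 of 7 periosteum and tendon and 2 of 7 B cell markers and higher 6 of 8 neutrophil markers, where 3.99% of all genes were called lower and 2.86% higher. With background reads as a covariate, 28 genes in all were called in loaded tibiae, 24 lower and 4 higher. Not all marker calls in loaded tibiae therefore hold with it. Marrow stroma markers, 7 in number, summed to 1260 to 1740, 1440 to 2150, 1130 to 1850 and 793 to 1710 CPM, with 2 called lower in loaded and 0 in unloaded tibiae. Osteoclast markers, also 7, summed to 374 to 570 CPM in unloaded and 644 to 1260 CPM in loaded vehicle libraries, with none called for loading there, and to 399 to 660 and 402 to 653 CPM in unloaded and loaded DEX libraries, with 2 called lower in loaded and 0 in unloaded tibiae under DEX. Of 6 marrow adipocyte markers 2 were called higher in each DEX comparison and 1 lower in unloaded tibiae, of 7 endothelium markers 1 was lower in each, and of 7 erythroid markers none was called. Of 5 glucocorticoid-induced genes 2 were called higher in loaded tibiae and 1 lower in unloaded tibiae. None of these markers was at 0 throughout a group. The part of such shifts in the results on Igf1, Igf1r, Igf2r and the binding proteins was not tested. The library with most Igf1, loaded vehicle replicate 1, also had the highest periosteum and tendon sum, 4240 CPM. Its sums of marrow stroma and endothelium markers, 2150 and 597 CPM, were the highest too. The unnumbered unloaded vehicle library had the highest osteoblast sum, 145000 CPM, and the least Igf1 of the vehicle libraries, 70.1 CPM.

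The 5 genes most like Igf1 across the 19 libraries, by Spearman correlation of log2 CPM among 9912 protein-coding genes at 10 CPM or more, were Fbln7, Epha3, Thbs2, Itm2a and Cnn3, with rho from 0.961 to 0.970. For Igfbp5 they were Ldlrad4, Ltbp2, Cyb5r3, 4930402H24Rik and S1pr1, with rho from 0.933 to 0.958. The libraries fall into 4 groups that differ in treatment, background reads and composition, so these values describe the libraries. With group means removed, rho was 0.851 between Igfbp6 and Igfbp7, 0.830 between Igf1 and Igfbp6, 0.821 between Igf1 and Igfbp7 and 0.789 between Igfbp4 and Igfbp5. Igf1 and Igf1r had a rho of -0.218 on that scale.

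Among 13 other genes of the IGF system, 5 of 11 tested were called in loaded tibiae under DEX, 3 lower and 2 higher, and 1 of 11 in unloaded tibiae, lower. Over all genes 8.35% were called lower and 12.9% higher in loaded tibiae, and 3.99% and 2.86% in unloaded tibiae. With background reads as a covariate, edgeR called 28 of all genes in loaded tibiae, 4 higher and 24 lower, and none of the genes of the 4 wider lists, so the calls in loaded tibiae given for these lists hold only without that covariate. As said above, the covariate cannot be separated from DEX in loaded tibiae. Htra1, a secreted serine protease that cuts binding proteins, fell in both, by 1.07 on the log2 scale in loaded tibiae with an SE of 0.21 and an edgeR adjusted p of 0.00745, and by 0.76 in unloaded tibiae with an SE of 0.14 and an adjusted p of 0.0116. With the covariate its log2 fold change was -0.60 in loaded tibiae, with an adjusted p of 0.448, and -0.63 in unloaded tibiae, with an adjusted p of 0.0196. It held 74.0 to 135 CPM in loaded vehicle and 32.3 to 66.9 CPM in loaded DEX libraries. Pappa, the protease that cuts IGFBP4, had a log2 fold change of -0.77 in loaded tibiae with an SE of 0.24 and an edgeR adjusted p of 0.0361, a call that held in only 3 of 10 fits with a library left out, and with the covariate the value was 0.03. Stc2, an inhibitor of that protease, was higher by 0.93 with an SE of 0.20 and an adjusted p of 0.0103, and with the covariate by 0.52 with an adjusted p of 0.531. Pappa had a log2 fold change of -0.20 in unloaded tibiae with an adjusted p of 0.689, and Stc2 of 0.46 with an adjusted p of 0.120. H19, the imprinted noncoding RNA next to Igf2, had a log2 fold change of -1.71 in loaded tibiae with an edgeR adjusted p of 0.0267, which rose to 0.0623 without loaded vehicle replicate 1, and of -0.07 with the covariate. Loaded vehicle replicate 1, at 521 CPM, and the unnumbered one, at 416 CPM, stood apart, while the other 3 held 91.0 to 115 CPM and overlapped the loaded DEX libraries at 43.5 to 105 CPM. Igf2bp1, an RNA-binding protein that attaches to Igf2 mRNA, was also called higher there, with an adjusted p of 0.0183, at low levels of 0.391 to 2.25 CPM in loaded vehicle and 2.38 to 12.4 CPM in loaded DEX libraries. With the covariate the log2 fold change of Igf2bp1 was -0.07, with an SE of 0.45, against 2.25 without it.

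Upstream, in the growth hormone axis that drives Igf1 transcription, 1 of 8 genes was called in each DEX comparison, higher both times, where 12.9% of all genes were called higher in loaded and 2.86% in unloaded tibiae. Cish, a feedback inhibitor of STAT5 signalling, rose by 1.61 on the log2 scale in loaded tibiae with an SE of 0.26 and an edgeR adjusted p of 0.00267, from 7.04 ± 2.51 CPM to 20.7 ± 6.20 CPM (SD, n = 5 each). With the covariate the value was 0.96 with an SE of 0.36 and an adjusted p of 0.270. In unloaded tibiae its log2 fold change was 0.87 with an adjusted p of 0.0607. Socs3, an inhibitor of the same family, rose by 0.89 in unloaded tibiae with an SE of 0.24 and an adjusted p of 0.0428, and had a log2 fold change of -0.04 in loaded tibiae.

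Downstream, of 17 receptor-proximal adaptors and PI3K subunits, 4 were called lower in loaded tibiae, and 3 were called in unloaded tibiae, 2 lower and 1 higher. Irs4 also passed in loaded tibiae, on the higher side, but is not counted for the reason given below. The shares of all genes called lower and higher were 8.35% and 12.9% in loaded and 3.99% and 2.86% in unloaded tibiae. Grb10 and Grb14, adaptors that restrain the insulin and IGF1 receptors, fell in loaded tibiae by 1.28 and 0.92 on the log2 scale, with SEs of 0.20 and 0.16 and edgeR adjusted p of 0.00251 and 0.00351. With the covariate the log2 fold changes were -1.07 and -0.89, with adjusted p of 0.207 and 0.210. Grb14 also fell in unloaded tibiae, by 0.68 with an adjusted p of 0.0342, where Grb10 had a log2 fold change of -0.68 with an adjusted p of 0.123. Pik3r2, a regulatory PI3K subunit, fell by 0.79 in loaded tibiae with an adjusted p of 0.0114, and had a value of -0.22 with the covariate. Irs1, a docking protein of the IGF1 receptor, fell by 0.53 in unloaded tibiae with an adjusted p of 0.0481, and Pik3cb, a catalytic subunit, rose by 0.73 with an adjusted p of 0.0351. The gene called higher in loaded tibiae was Irs4, at 0.259 to 1.55 CPM in loaded vehicle and 2.17 to 8.66 CPM in loaded DEX libraries. Irs4 was too low to be tested for loading in vehicle-treated mice. It entered this comparison through the DEX libraries, so its call is not read as a result. These libraries also held the most background reads. With the covariate the log2 fold change of Irs4 was 0.28 with an adjusted p of 0.878, and the part of background reads in it was not tested.

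Of 18 genes of the Akt, mTOR and FoxO group, 1 was called lower in each DEX comparison and none higher, beside 8.35% of all genes called lower in loaded and 3.99% in unloaded tibiae. Ddit4, an inhibitor of mTORC1, fell by 1.09 on the log2 scale in loaded tibiae with an SE of 0.26 and an edgeR adjusted p of 0.0137, which the covariate raised to 0.429 at a value of -0.83, and had a log2 fold change of -1.40 with an adjusted p of 0.0617 in unloaded tibiae. Foxo1, a transcription factor that Akt holds out of the nucleus, fell by 0.50 in unloaded tibiae with an adjusted p of 0.0475. Most calls of these lists in unloaded tibiae were lost when single libraries were left out. They held in 8 of 9 such fits for Htra1, 4 for Pik3cb, 3 each for Socs3 and Grb14 and 1 each for Irs1 and Foxo1, and without unloaded DEX replicate 3 all 6 were lost, with edgeR adjusted p from 0.0569 for Htra1 to 0.183 for Irs1. With the background covariate the calls held for Htra1, Socs3 and Pik3cb, with edgeR adjusted p of 0.0196, 0.00706 and 0.0186. They were lost with it for Grb14 (0.0588), Foxo1 (0.083) and Irs1 (0.117). Median log2 fold changes in loaded tibiae were 0.54 for the other IGF system genes, -0.02 for the growth hormone axis, -0.30 for the adaptors and PI3K and -0.22 for the Akt group, and in unloaded tibiae 0.18, -0.03, 0.06 and -0.08, to be read beside the medians over all genes given above. No gene of these 4 lists was called for loading or for the interaction by edgeR or DESeq2. At an unadjusted p under 0.05 were 3 of their 53 genes tested for loading in vehicle-treated mice, 3 of 55 for loading in DEX-treated mice and 4 of 55 for the interaction. The lowest edgeR adjusted p of the loading comparison in vehicle-treated mice was 0.316, for Socs3.

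**Figure D5:**
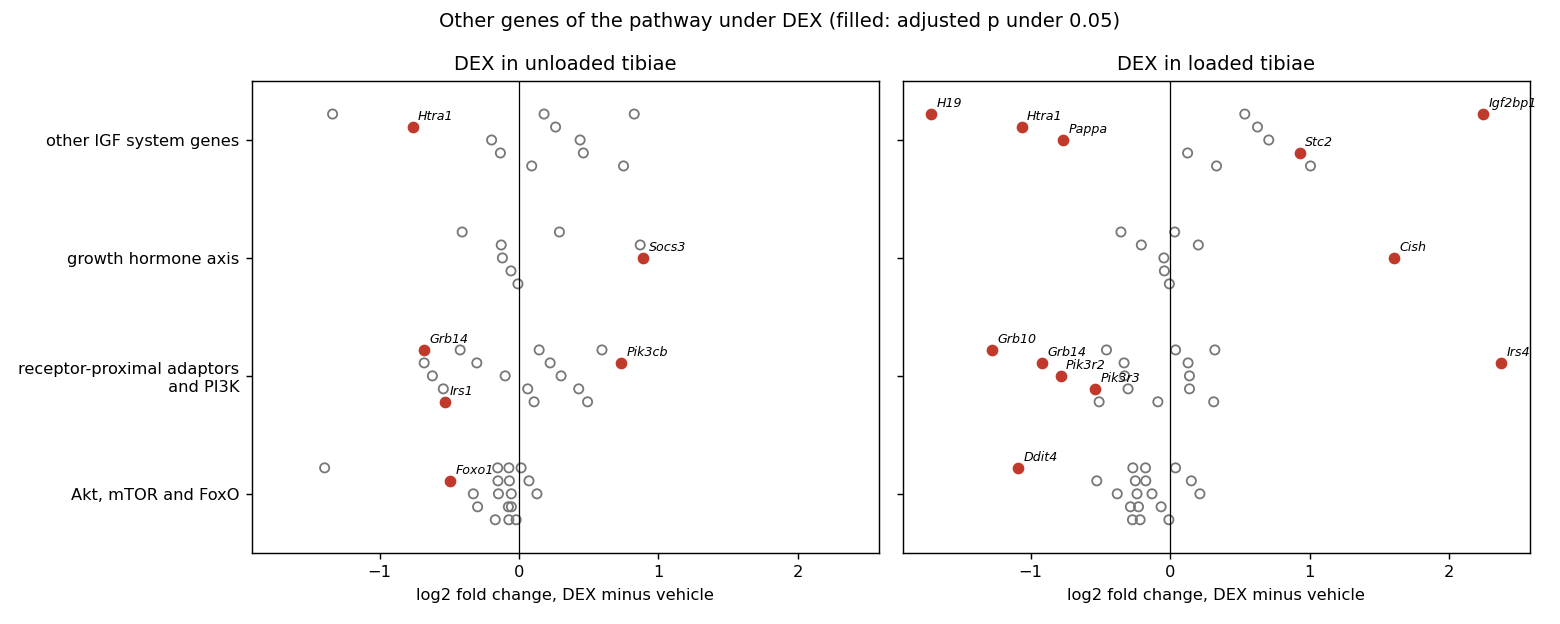
Log2 fold change (DEX minus vehicle) of the genes of 4 wider lists in unloaded tibiae (left) and loaded tibiae (right), with filled, named points where the edgeR adjusted p was under 0.05. Htra1 and Grb14 are filled on the lower side in both panels, and Irs4, Igf2bp1 and Cish lie furthest to the higher side in loaded tibiae.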

How the data were processed

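RNA-seq was measured in 20 tibia libraries, 5 per combination of treatment and loading. For 54446 genes the authors deposited RSEM's expected counts, with no scaling to library size. The submitters' processing notes name STAR 2.7.10a, RSEM 1.2.28 and GRCm38, and the sample labels name a stranded total RNA kit for low input. The annotation release and the strand setting of the counting are not given in the sources used here. RSEM divides reads that match several genes by estimate, so genes with overlapping exons can trade counts.

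Expected counts were rounded to whole numbers, since in each library 10.6% to 14.0% of them carried a fraction. Symbols came from a table that matched 54409 identifiers, and positions and exon lengths from GENCODE M21. Tests used R 4.3.3 and edgeR 4.0.16: filterByExpr on the groups compared, TMM normalization, the quasi-likelihood F test without robust estimation, and Benjamini-Hochberg adjustment over all genes tested, with 0.05 as the threshold. The SE is the absolute log2 fold change divided by the square root of F. CPM values are on a TMM scale set over the 22659 genes kept in all 20 libraries, and CPM per kb divides them by the union of a gene's exons. All genes were fitted, and only those of the IGF system and 4 wider lists are printed. In the wider lists up to 3 called genes per direction were named, those of largest change, and where none was called the gene of lowest adjusted p. Promoters were taken from RefSeq. Totals of 4641437 to 13032018 counts limit the precision for low genes such as Igfbp2. The fitting steps were tested on simulated data.

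Alternatives were DESeq2 1.42.0, its size factors in edgeR, a filter of only 1 count in total, a minimum of 10 counts in each library, a block for the replicate number, a joint model of all 4 groups, the left-out library kept, loaded DEX replicate 4 left out instead, each library left out in turn, and the log2 level of olfactory and vomeronasal receptor reads as a covariate. The block's libraries without the block, and both DEX libraries numbered 4 left out, were added after seeing the data. Which DEX-4 library the study removed is not stated. The unloaded one was left out here, following the number of values its figures plot. The genes and lists were chosen with earlier results of these data known. Samples came from limbs of the same mice, but no source ties a replicate number to a mouse, so the main fits have no block.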

Additional observations from a re-analysis of the deposited data

Results flagged for a closer look

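Among the 40 sets of 5 libraries that the 10 genes and 4 groups make, 3 held a library far from the other 4 by Dixon's criterion, which chance alone gives in about 1 of 20 sets. Igf2 was at 85.8 CPM in unloaded vehicle replicate 4, against 20.02 to 33.3 CPM in the rest of that group. The same library held 672 CPM of H19, the noncoding neighbour of Igf2, against 44.7 to 82.3 CPM, and a periosteum and tendon marker sum of 3390 CPM against 1200 to 1420 CPM. Igf2 was also apart in loaded DEX replicate 1, at 35.0 CPM against 11.8 to 17.7 CPM, where H19 was at 43.5 CPM, the lowest of that group. Igf1r was apart in loaded vehicle replicate 5, at 99.3 CPM against 140.2 to 151.6 CPM. The part of any marker in these values was not tested.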

How the results depend on the processing

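Counts of genes called moved more with the settings than the direction of the called genes of the IGF system. For DEX in loaded tibiae edgeR called 4206 genes, and 9016 without a filter, 2203 with at least 10 counts in every library, 8446 with all 4 groups in 1 model and 28 with the background covariate, which called 0 of the 10 genes. For DEX in unloaded tibiae it called 1351 genes, 2592 with the covariate, 2922 with unloaded DEX replicate 4 kept (4 of the 10 genes) and 2411 in DESeq2, and 1 of the 10 genes with no filter or with all 4 groups in 1 model. For loading in vehicle-treated mice, DESeq2 called 141 genes, no filter 50 and all 4 groups 4, and for the interaction DESeq2 called 50 and no filter 1. The cause was not tested.

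With the replicate number as a block, DEX in loaded tibiae gave 2326 genes and 2 of the 10 (Igf1 and Igfbp7), against 1120 and 1 for the same libraries without it, and DEX in unloaded tibiae gave 520 and 1 (Igf1), against 566 and 1. In these DEX comparisons the block joins same-numbered DEX and vehicle libraries, which come from different mice. Their deviations correlated at -0.229 to 0.476 in loaded and -0.186 to 0.312 in unloaded tibiae. Deviations of same-numbered loaded and unloaded libraries correlated at -0.301 to 0.249 in vehicle and 0.019 to 0.364 in DEX. Not every pair was above 0.1, so the numbers were not taken to pair the libraries, although the limbs are of the same mice.

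With each library left out, genes called ran from 2696 to 5822 for DEX in loaded tibiae (2 to 5 of the 10 genes), 129 to 1867 in unloaded tibiae (0 to 2), 0 to 39 for loading in DEX-treated mice, 0 to 4 in vehicle-treated mice and 0 to 54 for the interaction. Counts moved by over 1.5 times without unloaded DEX replicate 3 (129 genes, 0 of the 10), unloaded vehicle replicate 5 (530 genes, 1 of the 10), unloaded DEX replicate 2 (828, 1) or unloaded vehicle replicate 4 (830) for DEX in unloaded tibiae, where leaving out unloaded DEX replicate 5 or unloaded vehicle replicate 1 also left 1 of the 10. In loaded tibiae they did so without the unnumbered loaded vehicle library (2696 genes) or loaded vehicle replicate 1 (2 of the 10). Without unloaded DEX replicate 5, loading in DEX-treated mice gave 39 genes and the interaction 54.

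Some signs turned, on the log2 scale, of values as far from 0 as -0.57 for Igfbp2 (DEX, unloaded) and 0.39 for Igf2 (interaction). With the background covariate these were -0.034 for Igf1r, -0.029 for Igf2r and -0.054 for Igfbp5 (loading, vehicle), 0.012 for Igf1r, 0.064 for Igf2r, 0.034 for Igfbp4, 0.077 for Igfbp5 and 0.0013 for Igfbp6 (loading, DEX), 0.33 for Igf2 and 0.25 for Igfbp6 (DEX, loaded), 0.086 for Igfbp2 and 0.23 for Igfbp4 (DEX, unloaded), and 0.042 for Igf1r, 0.092 for Igf2r, 0.14 for Igfbp3 and 0.14 for Igfbp5 (interaction). With the block and with its libraries unblocked, they were -0.055 and -0.037 for Igfbp5 (loading, vehicle), 0.019 and 0.018 for Igf2r and 0.079 and 0.079 for Igfbp5 (loading, DEX), 0.12 and 0.13 for Igfbp6 (DEX, loaded), 0.11 and 0.14 for Igfbp4 (DEX, unloaded), and 0.11 and 0.097 for Igfbp5 (interaction), besides 0.054 for Igfbp6 unblocked (loading, DEX). With loaded DEX replicate 4 left out instead, loading in DEX-treated mice gave 0.0047 for Igf2r, 0.052 for Igfbp5 and 0.10 for Igfbp6, and with both left out 0.018, 0.079 and 0.054. Igfbp6 was at 0.0055 with unloaded DEX replicate 4 kept, and with at least 10 counts in every library at 0.013 for loading in DEX-treated mice and 0.10 for DEX in loaded tibiae. With each library left out, the ranges that crossed 0 were -0.10 to 0.61 for Igf2 (interaction), -0.22 to 0.018 for Igf2r, -0.18 to 0.079 for Igfbp5 and -0.27 to 0.091 for Igfbp6 (loading, DEX), -0.0097 to 0.31 for Igf2r and -0.019 to 0.18 for Igfbp5 (loading, vehicle), -0.31 to 0.0044 for Igfbp2 and -0.25 to 0.13 for Igfbp6 (DEX, loaded), and -0.24 to 0.027 for Igfbp4 (DEX, unloaded). None of these was called. The fit with loaded DEX replicate 4 left out instead has the same libraries for DEX in unloaded tibiae as that with unloaded DEX replicate 4 kept.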

Other observations

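Unloaded DEX replicate 4, which was left out of the main tests, held 52.5 CPM of Igf1, 225.7 CPM of Igf1r, 135.1 CPM of Igf2r and 563.4 CPM of Igfbp5. These lay within the range of the other 4 unloaded DEX libraries, as did Igf2 at 20.6, Igfbp3 at 49.7, Igfbp4 at 428.1 and Igfbp7 at 72.8 CPM. Igfbp6, at 35.5 CPM, lay below that range, whose lowest value was 39.7 CPM, and Igfbp2, at 2.11 CPM, lay above its highest value of 2.06 CPM. With this library included, edgeR called 4 of the 10 genes for DEX in unloaded tibiae, adding Igfbp5 (adjusted p = 0.0168) and Igfbp6 (adjusted p = 0.0431). Over all genes that fit called 2922 of 19271, where the main fit called 1351 of 19738.

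Transcripts that overlap the genes were measured too. Over the 19 libraries of the tests Igf2os had a median of 2.35 CPM and a highest value of 15.9 CPM in loaded DEX replicate 4, above the 14.7 CPM of Igf2 there, Gm49394 of 0 CPM with a highest value of 6.61 CPM, and Airn, the antisense RNA at Igf2r, of 14.9 CPM. Polr2b, whose exons overlap those of Igfbp7 on the other strand, had a median of 69.2 CPM, within the range of Igfbp7 itself.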
